A study of Mus musculus with 18 samples.

Results

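The circadian clock genes described here are Clock, Arntl, Per1, Per2, Per3, Cry1, Cry2, Nr1d1, Nr1d2 and Dbp, chosen by symbol from the deposited tables. Of the 10 genes listed, 9 had a row among the 15307 genes of the count table, and all 9 passed the filter on low counts in both assays. Genes were looked up by symbol, which 9787 of the 15307 carry, and no row carried the symbol Nr1d1, so this gene is not analysed here. Ribosome footprints, the mRNA stretches that translating ribosomes protect from nuclease, and total RNA were sequenced from mouse GTML medulloblastoma cells. These cells carry a human MYCN transgene driven through the Glt1 promoter, directed to hindbrain neural progenitors, and the DMSO controls carry it too. The cells were grown with EGF and bFGF. They were exposed for 3 h to Rapalink-1 at 50 nM, to rapamycin at 5 nM, or to the vehicle DMSO, in 3 replicates each, and the 18 libraries comprise 9 of each assay. Rapamycin inhibits the growth kinase mTOR at an allosteric site, and Rapalink-1 links rapamycin to an inhibitor of its ATP site. Both drugs were set against the same DMSO libraries, at doses that differ, so a comparison between them is one of treatments as dosed. In the library names, rapamycin footprints are marked RP, and those of DMSO and Rapalink-1 RP-B. The rapamycin libraries of both assays are also numbered after all others. No source used here says what these marks mean. In comparisons with rapamycin, any difference in handling cannot be told apart from treatment. All 18 library names share the prefix GTML5, and nothing in the labels says that the replicates came from separate animals or lines. The p-values therefore measure the spread between these samples, which may be technical. The sources used here do not give whether the cells' clocks were synchronized, and 1 time point was sampled.

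The mammalian clock is a feedback loop of transcription and translation. The proteins CLOCK and BMAL1, the product of Arntl, bind E-box elements and activate the Per and Cry genes, whose products return to the nucleus and repress them. In a second loop the nuclear receptors NR1D1 and NR1D2 (REV-ERB alpha and beta) repress Arntl and other genes with ROR elements, on which ROR proteins activate. DBP is an output factor that binds D-box elements and is itself driven through E-boxes.

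Stretches of the promoters of 5 members and of 2 further pathway genes are shown. Their RNA or footprints moved with treatment, and the stretches hold letters of elements that clock factors can bind. The letters alone do not tell which factor, if any, binds them. The 2 further genes, Ciart and Cipc, were chosen as E-box examples after their values were seen. The sequences come from RefSeq (GRCm38.p6), and capitals mark the motif matches. The marked GTAAACA in Cry1 is a FoxO site and not a site of the clock factors described above. Windows of 250 bases before the annotated start were searched on both strands, and 9 of the 10 members had such a window. Per2 was the member without one.
Nr1d2, chr14:18239153-18239208, minus strand: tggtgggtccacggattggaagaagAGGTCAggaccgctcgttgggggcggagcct
Cry1, chr10:85185084-85185174, minus strand: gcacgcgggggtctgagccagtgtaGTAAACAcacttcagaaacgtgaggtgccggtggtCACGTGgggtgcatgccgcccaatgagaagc
Per1, chr11:69098758-69098842, plus strand: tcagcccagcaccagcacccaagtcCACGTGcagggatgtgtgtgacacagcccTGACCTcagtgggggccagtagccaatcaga
Per3, chr4:151044791-151044895, minus strand: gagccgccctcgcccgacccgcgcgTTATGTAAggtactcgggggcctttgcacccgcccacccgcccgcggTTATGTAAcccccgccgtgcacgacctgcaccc
Clock, chr5:76303591-76303646, minus strand: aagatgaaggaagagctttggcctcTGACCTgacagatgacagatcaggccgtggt
Ciart, chr3:95882242-95882369, minus strand: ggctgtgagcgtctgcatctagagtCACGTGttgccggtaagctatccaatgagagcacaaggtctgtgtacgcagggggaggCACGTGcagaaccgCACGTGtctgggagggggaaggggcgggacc
Cipc, chr12:86947301-86947342, plus strand: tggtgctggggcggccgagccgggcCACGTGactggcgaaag

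The motifs were an E-box (CACGTG), a D-box (TTATGTAA or TTACGTAA), the core of a ROR element (AGGTCA on either strand), that core with its flank (the AT-rich RORE), a FoxO site (GTAAACA) and a cyclic AMP response element (TGACGTCA). Over all 32851 promoter windows, 6.02% held the E-box, 0.93% a D-box, 14.02% the ROR core, 0.33% the AT-rich RORE, 3.17% the FoxO site and 1.55% the cyclic AMP response element. Counted from the start, Nr1d2 had a ROR core at -77, Cry1 an E-box at -60 and a FoxO site at -95, and Per1 an E-box at -166 and a ROR core at -137. Per3 had 2 D-boxes, at -205 and -158, and Clock a ROR core at -119. No window of a member or other pathway gene held the AT-rich RORE, so each ROR match was the core alone. Ciart, an E-box-driven repressor of CLOCK and BMAL1, had 3 E-boxes, at -116, -58 and -44, and Cipc, a CLOCK-interacting repressor, had 1 at -17. Of the other pathway genes with a row and not shown, Tef, a D-box factor related to DBP, had an E-box in each of 2 windows, at -127 and -138, Timeless a D-box at -157, and Nfil3 and Nampt a ROR core at -12 and -151. Tef RNA went the other way from Ciart and Cipc with Rapalink-1, at 0.46 ± 0.14 on the log2 scale (adjusted p = 0.0072, or 0.32 and 0.057 with library totals), and Nampt footprints stood at -0.39 ± 0.056 (adjusted p = 1.7e-07, or -0.12 and 0.075 with library totals). The windows of Arntl, Cry2, Dbp and Nr1d1 held none of these letters. The windows of Clock, Per1 and Arntl lie inside the annotated span of their gene, before starts of some of its transcripts. Those of Dbp, Per3 and Cry2 reach partly into the span of theirs. Clock, Per1 and Cipc also had windows that held none of these letters. A match describes the letters and does not show that a factor binds there.

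Positions refer to RefSeq GRCm38.p6, and each gene is protein-coding. Nr1d2 spans chr14:18204056-18239106, Clock chr5:76209868-76305603, Arntl chr7:113178471-113314126 and Dbp chr7:45705100-45710203. Per1 spans chr11:69095108-69109965, Per2 chr1:91415977-91459351 and Per3 chr4:150997018-151044707. Cry1 spans chr10:85131700-85185054 and Cry2 chr2:92403646-92434085. Per3 overlaps Uts2, Dbp overlaps Sphk2, Per2 overlaps Gm35591, Cry2 overlaps D930015M05Rik, Arntl overlaps Gm33721, and Clock overlaps Ube2n-ps1 and Gm7467. The sources used here do not give whether counting used strand, so reads in these overlaps are of uncertain origin.

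After the rows were reduced to 1 per gene, the RNA libraries held 6788365 to 13300292 reads and the footprint libraries 7692625 to 14150068. Levels below are CPM, read counts scaled to the TMM-adjusted library size, and they are not compared between genes because they are not per length. Of 10 markers of hindbrain progenitors and the tumour line, 7 had a row with their symbol, and no row carried the symbols Sox2, Olig2 or Atoh1. The summed level of these 7 was 930 to 1040 CPM over all RNA libraries. In footprints it was 946 to 1020 CPM with DMSO, 1460 to 1470 with Rapalink-1 and 998 to 1010 with rapamycin. Unlike the other levels, these sums used library totals without TMM factors, and Mycn made up most of each. With TMM factors, mean Mycn footprints were 742 CPM with DMSO, 897 with Rapalink-1 and 684 with rapamycin. The part of the higher footprint sum with Rapalink-1 in the results below was not tested. None of 4 oligodendrocyte, 4 microglia and blood, 7 endothelial and fibroblast or 2 astrocyte markers had a row with its symbol. That does not show that these cells were absent. Of 3 neuronal markers 1 had such a row, at 2.94 to 5.05 CPM in RNA, also by library totals. The row of Mycn, which may hold reads of the human transgene, stood at 793 ± 16 CPM in RNA with DMSO (SD, n = 3). With no spike-in recorded, changes compare a gene with the rest of its library. Changes are log2 changes ± standard error from edgeR's quasi-likelihood test with 3 replicates per group, with Benjamini-Hochberg adjustment over all genes tested, and "called" means an adjusted p under 0.05. The standard error was derived as the size of the log2 change over the square root of the test's F. The 95% intervals use the normal distribution and not the test's degrees of freedom, so they are somewhat narrower than the p-values imply.

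In total RNA, 3 h of Rapalink-1 raised Nr1d2 and lowered Clock, Cry1, Per2 and Arntl. That was 5 of the 9 clock genes, 1 higher and 4 lower, where 38.2% of all 11271 genes tested were called in this comparison, 19.4% higher and 18.8% lower. Rapamycin changed 2 of the 9, Nr1d2 upward and Cry1 downward, where 24.1% of all genes were called, 13.6% higher and 10.5% lower. The median log2 change of the 9 genes was 0.07 with Rapalink-1 and 0.04 with rapamycin, and that of all genes 0.0019 and -0.00041. With library totals in place of TMM factors the clock genes called were the same in number and direction, while of all genes 9.96% were higher and 33.1% lower with Rapalink-1. In bulk RNA, fewer cells that express a gene and less RNA per cell cannot be told apart.

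In footprints, Rapalink-1 changed 7 of the 9 clock genes, where 53.7% of all 11281 genes tested were called, 25.7% higher and 28.0% lower. Nr1d2, Per1, Per3 and Dbp rose, and Clock, Per2 and Cry1 fell. With rapamycin Nr1d2 alone of the 9 was called, upward, where 18.1% of all genes were, 8.75% higher and 9.4% lower. The median of the 9 was -0.01 with Rapalink-1 and 0.08 with rapamycin, against 0.011 and 0.0012 over all genes. With library totals 4 clock genes were higher and 2 lower with Rapalink-1, and of all genes 47.9% were higher and 14.1% lower; with rapamycin 12.3% of all genes were higher and 5.8% lower.

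Translational efficiency, here how much more footprints changed than RNA did on the log2 scale, rose with Rapalink-1 for Nr1d2, Per1, Per3 and Cry1 and fell for none of the 9. Among all 10988 genes tested 42.2% were called, 22.3% higher and 19.9% lower. The median change of the 9 was 0.58, against 0.058 over all genes. With rapamycin 1 of the 9 was called, Cry1 upward, where 16.4% of all genes were, 6.52% higher and 9.85% lower. The median of the 9 with rapamycin was 0.19, against -0.0019 over all genes. With library totals 6 clock genes were higher and 0 lower with Rapalink-1, and of all genes 50.5% were higher and 7.65% lower; with rapamycin 8.46% of all genes were higher and 7.7% lower. With the lysate that gave both libraries as a block, the number of clock genes called was 3 with Rapalink-1 (Per1 lost, adjusted p = 0.053) and 0 with rapamycin (Cry1 lost, adjusted p = 0.053).

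**Figure D1:**
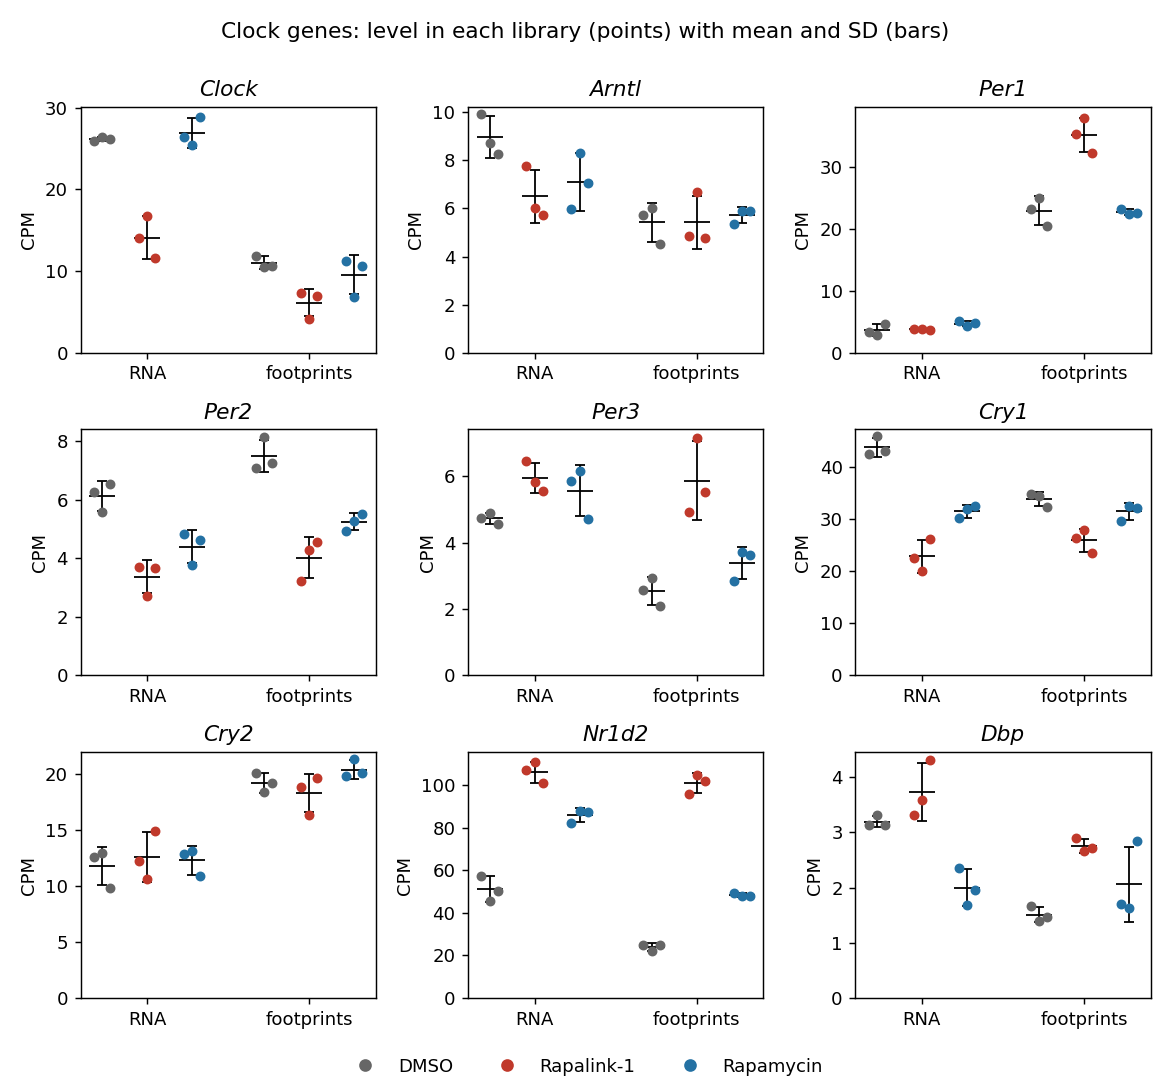
Level of each clock gene in every library in CPM (vertical axis, from 0), in total RNA and footprints, by treatment; points are libraries and bars the mean and SD of 3 replicates. The Nr1d2 points separate by treatment in both assays, those of Clock and Cry1 with Rapalink-1 lie below DMSO in both, and those of Cry2 overlap in RNA.

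Nr1d2, the nuclear receptor of the second loop, moved furthest of the 9 genes in footprints. Its RNA was 57.5, 45.7 and 50.3 CPM with DMSO, 107, 111 and 101 CPM with Rapalink-1, and 82.2, 88.0 and 87.4 CPM with rapamycin. The 3 treatments did not overlap, in the order DMSO, rapamycin, Rapalink-1. The change against DMSO was 1.05 ± 0.069 with Rapalink-1 (adjusted p = 1.6e-16) and 0.75 ± 0.07 with rapamycin (adjusted p = 3.9e-11). Footprints stood at 24.8, 21.9 and 25 CPM with DMSO, 96.0, 105 and 102 CPM with Rapalink-1, and 49.3, 47.9 and 47.7 CPM with rapamycin. Each footprint group was again separate from the others, and the step to Rapalink-1 was larger than in RNA. The change was 2.07 ± 0.079 with Rapalink-1 (adjusted p = 4.4e-24), a 4.19-fold rise, and 1.01 ± 0.082 with rapamycin (adjusted p = 4.6e-12), a 2.01-fold rise. Its efficiency rose by 1.05 ± 0.11 with Rapalink-1 (adjusted p = 6.7e-12). With rapamycin the efficiency change was 0.26 ± 0.11 (adjusted p = 0.1), with a 95% interval of 0.04 to 0.48 that is not adjusted for the number of genes.

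Clock, the DNA-binding activator that pairs with BMAL1, was lower with Rapalink-1 and not detectably changed by rapamycin. Its RNA was 25.9, 26.4 and 26.2 CPM with DMSO, 14, 16.8 and 11.6 CPM with Rapalink-1, and 26.4, 25.4 and 28.9 CPM with rapamycin. The Rapalink-1 libraries lay below all others, and the DMSO and rapamycin libraries overlapped. The RNA fell by 0.89 ± 0.11 with Rapalink-1 (adjusted p = 2.9e-08), and stood at 0.04 ± 0.11 with rapamycin (adjusted p = 0.85, 95% interval -0.17 to 0.25). Clock footprints were 11.9, 10.5 and 10.6 CPM with DMSO, 7.34, 4.16 and 6.93 CPM with Rapalink-1, and 11.2, 6.8 and 10.6 CPM with rapamycin. The second replicate was lowest with both drugs, and the Rapalink-1 values did not overlap those of DMSO. The footprint change was -0.83 ± 0.19 with Rapalink-1 (adjusted p = 0.00045) and -0.21 ± 0.18 with rapamycin (adjusted p = 0.47). Library totals in place of TMM gave -0.55 for Rapalink-1. Its efficiency stood at 0.1 ± 0.23 with Rapalink-1 (adjusted p = 0.75, 95% interval -0.34 to 0.55).

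Arntl encodes BMAL1, the partner of CLOCK. Its RNA was 9.95, 8.71 and 8.26 CPM with DMSO, 7.75, 6.02 and 5.74 CPM with Rapalink-1, and 5.96, 8.31 and 7.07 CPM with rapamycin. The Rapalink-1 values lay below those of DMSO, and the rapamycin values overlapped both. The RNA fell by 0.47 ± 0.17 with Rapalink-1 (adjusted p = 0.029). This call was lost in DESeq2's Wald test (adjusted p = 0.055) and without DMSO replicate 1 (0.15), Rapalink-1 replicate 2 (0.1) or Rapalink-1 replicate 3 (0.13). Footprints of Arntl ranged from 4.51 to 6.7 CPM over all 9 libraries, and the change with Rapalink-1 was -0.0068 ± 0.21 (adjusted p = 0.98, 95% interval -0.42 to 0.41). Its efficiency stood at 0.5 ± 0.27 (adjusted p = 0.13) with Rapalink-1 and 0.41 ± 0.27 (adjusted p = 0.32) with rapamycin.

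The 3 Period genes, whose products form the repressor complex with CRY proteins, moved in different ways. Per2 was lower with Rapalink-1 in RNA and footprints alike. Its RNA was 6.28, 5.57 and 6.55 CPM with DMSO, 3.71, 2.7 and 3.68 CPM with Rapalink-1, and 4.83, 3.76 and 4.61 CPM with rapamycin. All drug-treated libraries lay below all DMSO libraries, those with Rapalink-1 lowest. The RNA fell by 0.85 ± 0.22 with Rapalink-1 (adjusted p = 0.0015), and stood at -0.48 ± 0.21 with rapamycin, which did not pass (adjusted p = 0.093). Per2 footprints were 7.09, 8.13 and 7.24 CPM with DMSO, 3.23, 4.27 and 4.55 CPM with Rapalink-1, and 4.93, 5.26 and 5.52 CPM with rapamycin, again with no overlap between treatments. They fell by 0.91 ± 0.21 with Rapalink-1 (adjusted p = 0.00032), and stood at -0.5 ± 0.19 with rapamycin (adjusted p = 0.065). The authors' deposited table gives the same -0.5 for rapamycin with an adjusted p of 0.044, and this was the single difference in calls from their 6 tables over the 9 genes. Its efficiency stood at -0.01 ± 0.31 with Rapalink-1 (adjusted p = 0.98), with a wide 95% interval of -0.61 to 0.59.

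Per1 rose in footprints with Rapalink-1, while its RNA did not pass the test. Its RNA was 3.41, 2.87 and 4.7 CPM with DMSO, 3.87, 3.75 and 3.59 CPM with Rapalink-1, and 5.14, 4.23 and 4.71 CPM with rapamycin, on 33 to 53 reads per library. The Rapalink-1 and rapamycin values each overlapped DMSO, and rapamycin lay above Rapalink-1; the change with Rapalink-1 was 0.07 ± 0.24 (adjusted p = 0.84). Footprints were 23.2, 24.9 and 20.5 CPM with DMSO, 35.3, 37.8 and 32.2 CPM with Rapalink-1, and 23.2, 22.3 and 22.6 CPM with rapamycin. Those with Rapalink-1 lay above all others, and rapamycin fell among DMSO. The footprint rise was 0.62 ± 0.1 with Rapalink-1 (adjusted p = 1.8e-06), and rapamycin gave -0.0047 ± 0.1 (adjusted p = 0.98). The efficiency rose by 0.58 ± 0.23 (adjusted p = 0.041), a call on few RNA reads. It was lost with the lysate as a block (adjusted p = 0.053), without a count filter (0.071), with rapamycin left out of the fit (0.058) and without DMSO replicate 1 or Rapalink-1 replicate 1, 2 or 3 (0.059 to 0.11), and the value was 0.33 (adjusted p = 0.32) without DMSO replicate 3. Library totals gave 0.94.

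Per3 rose in footprints with Rapalink-1. Its footprints were 2.56, 2.94 and 2.1 CPM with DMSO, 4.92, 7.16 and 5.53 CPM with Rapalink-1, and 2.83, 3.72 and 3.63 CPM with rapamycin. The Rapalink-1 values lay above all others, and the lowest with rapamycin lay within the DMSO range. The rise was 1.21 ± 0.26 with Rapalink-1 (adjusted p = 0.00013) against 0.43 ± 0.27 with rapamycin (adjusted p = 0.3), on 20 to 62 reads per library. Per3 RNA was 4.75, 4.88 and 4.56 CPM with DMSO, 6.46, 5.84 and 5.56 CPM with Rapalink-1, and 5.85, 6.15 and 4.71 CPM with rapamycin. All 3 Rapalink-1 values exceeded those of DMSO, but the change of 0.33 ± 0.2 did not pass (adjusted p = 0.19). Its efficiency rose by 0.92 ± 0.31 with Rapalink-1 (adjusted p = 0.016), a call lost without DMSO replicate 3 (0.058) or Rapalink-1 replicate 2 (0.09).

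Cry1, a cryptochrome repressor of CLOCK and BMAL1, fell in RNA with both drugs. Its RNA was 42.4, 45.8 and 42.9 CPM with DMSO, 22.4, 19.9 and 26.2 CPM with Rapalink-1, and 30.1, 31.8 and 32.4 CPM with rapamycin. The 3 treatments did not overlap, with Rapalink-1 lowest. The RNA fell by 0.94 ± 0.093 with Rapalink-1 (adjusted p = 3.3e-11) and by 0.48 ± 0.09 with rapamycin (adjusted p = 7.6e-05). Cry1 footprints fell less, from 34.8, 34.3 and 32.2 CPM with DMSO to 26.3, 27.9 and 23.5 CPM with Rapalink-1, and were 29.5, 32.5 and 32.0 CPM with rapamycin. The Rapalink-1 values lay below all others, and DMSO and rapamycin overlapped. The footprints fell by 0.38 ± 0.095 with Rapalink-1 (adjusted p = 0.00079), a call lost with library totals (-0.11, adjusted p = 0.31), and stood at -0.11 ± 0.091 with rapamycin (adjusted p = 0.45). Efficiency rose by 0.6 ± 0.13 with Rapalink-1 (adjusted p = 0.00026), or 0.96 with library totals. With rapamycin it rose by 0.37 ± 0.13 (adjusted p = 0.04), a call lost with the lysate as a block (adjusted p = 0.053), without a count filter (0.053) and without any 1 of the 6 replicates (0.056 to 0.12).

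Cry2, the other cryptochrome, was called in none of the 9 comparisons of treatments and assays. Its RNA ranged from 9.83 to 14.9 CPM and its footprints from 16.4 to 21.4 CPM over all libraries. With Rapalink-1 the 95% interval of the log2 change was -0.22 to 0.35 in RNA, -0.3 to 0.15 in footprints and -0.46 to 0.27 in efficiency. With rapamycin it was -0.25 to 0.33, -0.14 to 0.3 and -0.32 to 0.4.

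Dbp, the D-box output factor, had the fewest reads of the 9 genes, 19 to 48 per RNA library and 10 to 36 per footprint library. Its RNA was 3.14, 3.31 and 3.13 CPM with DMSO, 3.31, 3.58 and 4.31 CPM with Rapalink-1, and 2.36, 1.68 and 1.95 CPM with rapamycin. The rapamycin values lay below all others. The RNA change was 0.22 ± 0.25 with Rapalink-1 (adjusted p = 0.53) and -0.69 ± 0.28 with rapamycin (adjusted p = 0.067), and neither passed. Footprints were 1.66, 1.4 and 1.47 CPM with DMSO, 2.9, 2.66 and 2.71 CPM with Rapalink-1, and 1.7, 1.63 and 2.84 CPM with rapamycin. The Rapalink-1 values lay above DMSO, and those of rapamycin overlapped both. With Rapalink-1 they rose by 0.85 ± 0.34 (adjusted p = 0.034), and no single replicate could be left out with the call kept (adjusted p 0.052 to 0.088). Its efficiency stood at 0.67 ± 0.41 with Rapalink-1 (adjusted p = 0.19) and 1.13 ± 0.43 with rapamycin (adjusted p = 0.063), which passed without Rapamycin replicate 1 (adjusted p = 0.048).

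**Figure D2:**
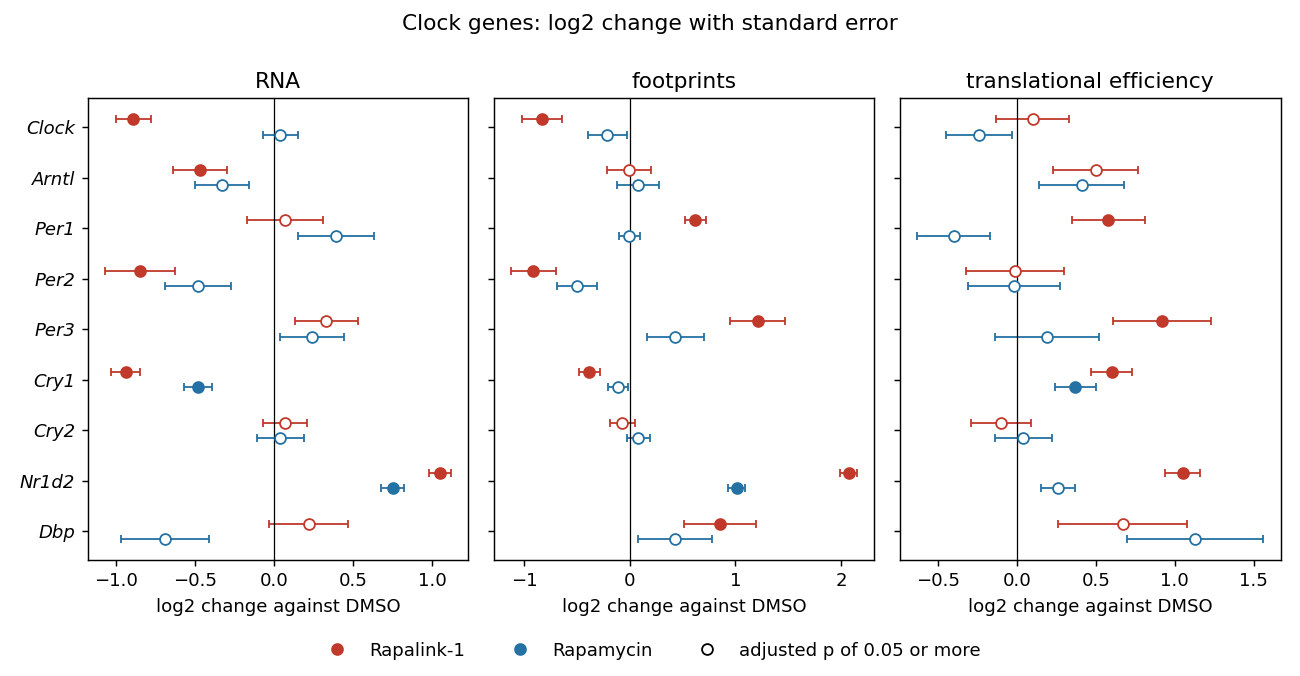
Log2 change against DMSO (horizontal axis) of each clock gene in RNA, footprints and translational efficiency; points are estimates, bars their standard errors, and open points have an adjusted p of 0.05 or more. Nr1d2 in footprints reaches 2.07 with Rapalink-1 and 1.01 with rapamycin, while Cry1 lies left of 0 in RNA and right of 0 in efficiency with both drugs.

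The ratio of footprints to RNA within a replicate, log2 of the CPM ratio, set Per1 apart from the other members before any drug. With DMSO it was 2.77, 3.12 and 2.12 for Per1, a mean of 6.36-fold, although on 33 to 38 RNA reads per library. Percentiles here rank the ratio of mean footprint CPM to mean RNA CPM with DMSO, where Per1 lay at the 98.6th of 10988 genes. Gene length cancels in this ratio only if the same region was counted in both assays, which no source used here states. The other members' means ran from -1.25 for Clock, at the 8.76th percentile, and -1.1 for Nr1d2, at the 11.2th, to 0.71 for Cry2, at the 79.9th. With Rapalink-1 the ratio of Nr1d2 was -0.15, -0.08 and 0.01, above all its DMSO values of -1.21, -1.06 and -1.01. Rapamycin gave -0.74, -0.88 and -0.87, which lay between them. The ratio of Cry1 went from -0.28, -0.42 and -0.41 with DMSO to 0.23, 0.49 and -0.16 with Rapalink-1, and its rapamycin replicates lay between -0.03 and 0.03.

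**Figure D3:**
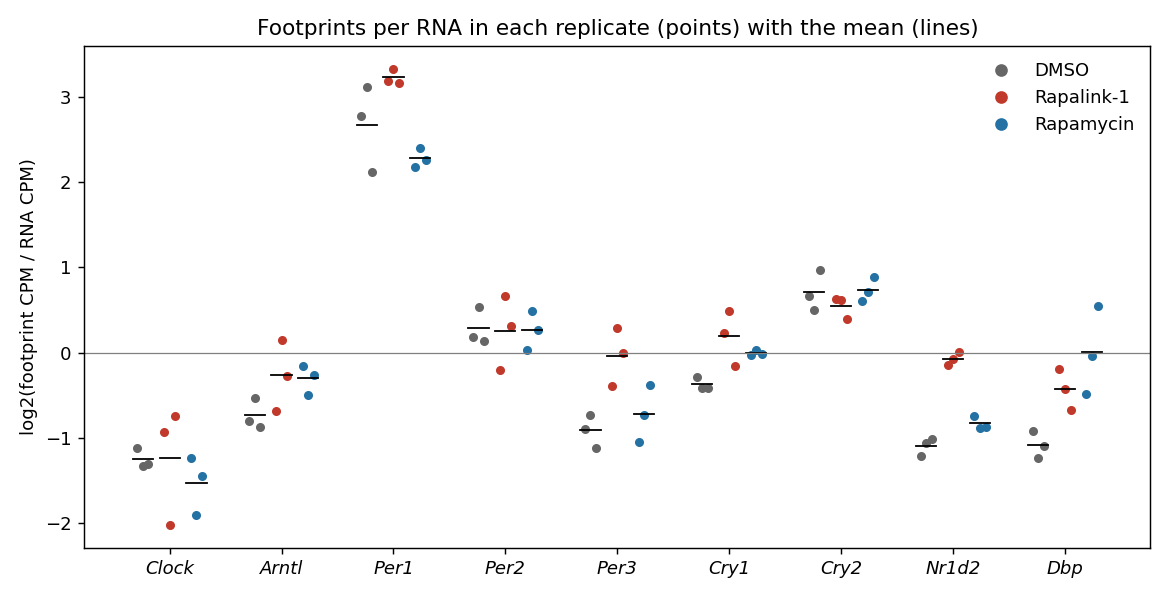
Footprints per RNA in each replicate (vertical axis, log2 of footprint CPM over RNA CPM) for the 9 clock genes by treatment; points are replicates and lines the mean of 3. Per1 lies above 2 in every replicate, and the Nr1d2 points move from about -1.1 with DMSO to near 0 with Rapalink-1.

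Set against 5 nM rapamycin, 50 nM Rapalink-1 gave higher RNA of Nr1d2 and Dbp and lower RNA of Cry1 and Clock, 4 of the 9 genes, where 41.1% of all genes were called, 19.6% higher and 21.5% lower. The difference was 0.31 ± 0.065 for Nr1d2 (adjusted p = 0.00017; 0.17 with library totals), 0.91 ± 0.27 for Dbp (adjusted p = 0.0055), -0.46 ± 0.095 for Cry1 (adjusted p = 0.0001) and -0.92 ± 0.11 for Clock (adjusted p = 7.5e-09). For Clock this tests directly that the 2 treatments differed in RNA. In footprints 5 of the 9 differed, where 53.1% of all genes did, 25.4% higher and 27.6% lower. Nr1d2 was higher by 1.06 ± 0.071, Per1 by 0.63 ± 0.098 and Per3 by 0.78 ± 0.24, and Cry1 (-0.27 ± 0.094) and Clock (-0.62 ± 0.19) were lower. The footprint differences of Cry1 and Clock were lost with library totals (adjusted p = 0.64 and 0.076), which left 3 clock genes higher and 0 lower, and the Clock values of the 2 drugs overlapped. That of Cry1 was also lost without Rapalink-1 replicate 3 (0.085), that of Clock without Rapalink-1 replicate 2 (0.072) or Rapamycin replicate 1 (0.06), and that of Per3 without Rapalink-1 replicate 2 (0.051). Efficiency was higher with Rapalink-1 for Nr1d2 (0.79 ± 0.097, adjusted p = 1.1e-09), Per1 (0.98 ± 0.22, adjusted p = 0.00016) and Per3 (0.72 ± 0.29, adjusted p = 0.035), 3 of the 9, where 50.1% of all genes were called, 26.1% higher and 23.9% lower. With library totals, of all genes 9.37% were higher and 35.2% lower in RNA, 44.1% and 16.2% in footprints, and 47.1% and 10.9% in efficiency, where 5 clock genes were higher. With the lysate as a block the call of Per3 was lost (adjusted p = 0.053), as it was without a count filter (0.058) and without Rapalink-1 replicate 2 or 3 or Rapamycin replicate 1 or 2 (0.075 to 0.18). Efficiency of Clock was called higher than with rapamycin without Rapalink-1 replicate 2 (0.68, adjusted p = 0.013) and that of Cry1 without Rapalink-1 replicate 3 (0.4, adjusted p = 0.021), where all replicates gave 0.35 (0.2) and 0.23 (0.16). For Per2 no difference between the treatments passed, with 95% intervals of -0.81 to 0.07 in RNA and -0.82 to 0.01 in footprints.

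Of 23 further genes of the clock pathway, 17 had a row with their symbol, and no row carried the symbols Npas2, Arntl2, Bhlhe41, Hlf, Fbxl21 or Usp2. In RNA, Rapalink-1 changed 11 of the 17, 7 higher and 4 lower, where 38.2% of all genes were called, and rapamycin changed 8, 5 higher and 3 lower, where 24.1% were. In footprints Rapalink-1 changed 10, 5 in each direction, against 53.7% of all genes, and rapamycin 6, 3 in each direction, against 18.1%. In efficiency Rapalink-1 changed 9, 6 higher and 3 lower, against 42.2% of all genes, and rapamycin lowered 2, Rora and Gsk3b, against 16.4% called in either direction. The call of Rora (adjusted p = 0.039 in edgeR's test) rests on few reads, 12 to 47 per DMSO footprint library. Its log2 ratios of footprints to RNA were 0.02, -1.28 and 1.21 with DMSO, and those with rapamycin overlapped them. With library totals the Rapalink-1 counts became 4 higher and 5 lower in RNA, 9 and 2 in footprints and 9 and 0 in efficiency, where of all genes 9.96% and 33.1%, 47.9% and 14.1%, and 50.5% and 7.65% were higher and lower. The median change of the 17 with Rapalink-1 was 0.14 in RNA, 0.04 in footprints and -0.01 in efficiency. Ciart, Nfil3, Cipc, Timeless and Csnk1d were among the 6 with the smallest p in RNA with Rapalink-1.

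Of these, the repressors Ciart and Cipc, whose promoters are shown above, fell in RNA with both drugs, and Ciart also in footprints with both. Ciart RNA was 4.66, 6.09 and 6.7 CPM with DMSO, 1.94, 2.27 and 1.88 CPM with Rapalink-1, and 3.18, 3.2 and 3.07 CPM with rapamycin, with no overlap between the 3. It fell by 1.5 ± 0.25 with Rapalink-1 (adjusted p = 3.9e-06) and by 0.86 ± 0.23 with rapamycin (adjusted p = 0.0049). Ciart footprints fell by 1.87 ± 0.22 and 0.93 ± 0.19 (adjusted p = 1.7e-09 and 0.00041). Cipc RNA fell by 0.81 ± 0.15 with Rapalink-1 (adjusted p = 1.8e-05) and by 0.52 ± 0.14 with rapamycin (adjusted p = 0.0067). Cipc footprints fell by 0.61 ± 0.12 with Rapalink-1 (adjusted p = 4e-05, or -0.34 with library totals) and stood at -0.08 ± 0.11 with rapamycin (adjusted p = 0.66). Nfil3, the repressor that competes for D-boxes, fell in RNA by 0.98 ± 0.18 with Rapalink-1 (adjusted p = 1.6e-05), while its footprints stood at -0.33 ± 0.16 (adjusted p = 0.089) and its efficiency rose by 0.69 ± 0.24 (adjusted p = 0.017). Its efficiency was 1.06 with library totals, and the call was lost without DMSO replicate 3 (0.052) or Rapalink-1 replicate 1 (0.077) or 3 (0.055).

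Timeless, a replication fork protein related to the insect clock gene, rose in RNA by 0.29 ± 0.058 and in footprints by 0.61 ± 0.064 with Rapalink-1 (adjusted p = 6.7e-05 and 2e-10), and library totals gave 0.16 in RNA. Csnk1d, a casein kinase that phosphorylates PER proteins, stood with Rapalink-1 at 0.24 ± 0.061 in RNA (adjusted p = 0.0012) and -0.18 ± 0.063 in footprints (adjusted p = 0.016), but at 0.11 (0.15) and 0.09 (0.2) with library totals, so the footprint direction flips with the scaling. The footprint call of Csnk1d was also lost without DMSO replicate 2 (0.063) or Rapalink-1 replicate 1 (0.066) or 3 (0.063).

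**Figure D4:**
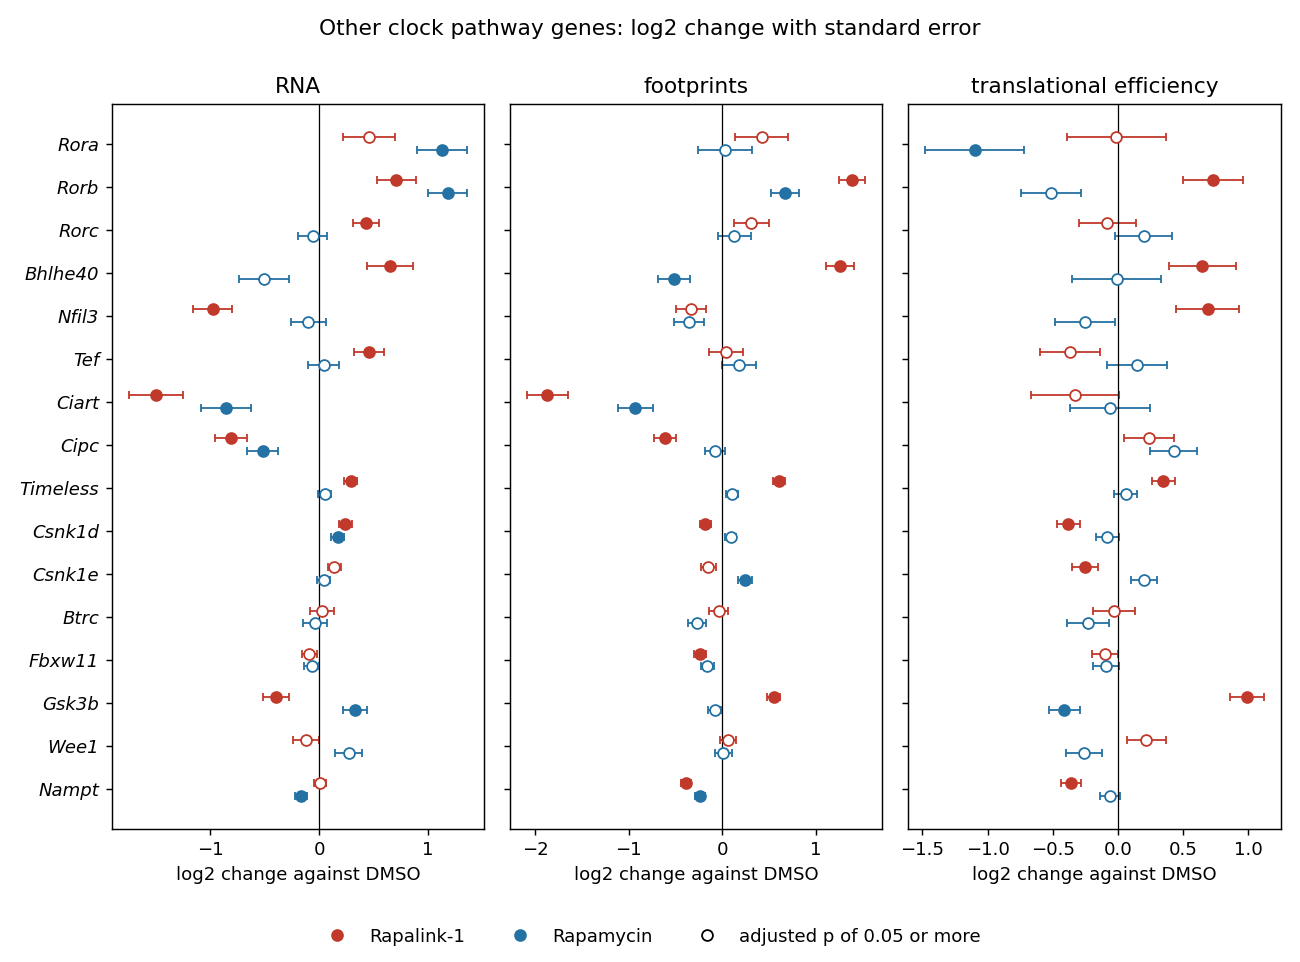
Log2 change against DMSO (horizontal axis) of further clock pathway genes in RNA, footprints and translational efficiency; points are estimates, bars their standard errors, and open points have an adjusted p of 0.05 or more. Ciart lies lowest in RNA and footprints with Rapalink-1, at -1.5 and -1.87 against -0.86 and -0.93 with rapamycin.

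For the 4 members called in both assays with Rapalink-1, the genes with the most similar pattern were found by Pearson correlation of log2 CPM over the 18 libraries after the mean of each assay was subtracted. The libraries share treatments and depth, so these values are a description without a p. Nearest to Nr1d2 among 7854 genes were Rnf103 (r = 0.977), Cep44 (0.976) and Pnpla8 (0.975), and nearest to Clock were Pank3 (0.915), Yod1 (0.911) and Otud4 (0.903). Nearest to Cry1 were Senp3 (0.926), Cdc25a (0.924) and Eif1b (0.923), and nearest to Per2 were Dynll1 (0.942) and Agfg2 (0.921).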

How the data were processed

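Footprint and total RNA libraries of 3 replicates per treatment were used, and the labels state that the RNA was an aliquot of the footprint lysate. The count values are whole-number read counts per transcript as deposited by the authors, without normalization; the submitters' processing notes name GRCm38 (mm10), and no source used here gives the aligner or counting program. The log2 fold changes and adjusted p-values of the 6 comparison tables are the authors' as deposited. Of 27382 rows, 6378 were at 0 in all libraries and were dropped. Rows of 1 gene, and rows with equal counts, were joined, which left 15307 genes. For each, the row with the most reads was kept and the counts were not summed. Symbols came from the authors' tables, and 16 of the genes so formed carry more than 1 symbol.

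Counts were fitted with edgeR 4.0.16 in R 4.3.3 (filterByExpr with a minimum count of 10 and total of 15, TMM, glmQLFit with robust dispersion, glmQLFTest), over 9 libraries per assay, and over all 18 for efficiency as the interaction of assay and treatment. The fits were tested on simulated data. Alternatives were DESeq2 1.42.0 (size factors, Wald test), library totals, TMM without ribosomal protein genes, no filter, only the 2 treatments compared, blocks and left-out replicates. The members and lists were chosen with earlier results of these data known. All members were named, with the 6 further pathway genes of smallest p in RNA with Rapalink-1 and the 3 genes most like each member called in both assays; some genes that this rule selects are not reported here. Same-numbered libraries of different treatments had weakly correlated deviations (r from -0.176 to 0.047 in RNA and -0.189 to 0.226 in footprints). Libraries of different numbers gave -0.093 to 0.18 in RNA and -0.343 to 0.272 in footprints. The same-numbered footprint values were positive except for DMSO with rapamycin, replicate 3. Such values cannot show that numbers are unpaired. Replicate numbers were not taken as pairs in the main fits, and a block by number is given below. Same-numbered footprint and RNA libraries of 1 treatment were 1 lysate per the labels' protocols (r from -0.087 to 0.201 over 9 lysates). They were paired for the ratios within a replicate and for the lysate block. The main efficiency fit had no such block, so its values and calls do not use this pairing.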

Additional observations from a re-analysis of the deposited data

How the results depend on the processing

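Of 1080 alternative values of single clock genes, 984 kept their direction and their side of the threshold, 41 lost the call, 7 gained it, and 48 changed sign, none of them called in either fit. Of 120 alternative counts of clock genes called, 108 stayed within 1.5 times. Of 222 alternative values of further pathway genes, 212 kept direction and call, 9 lost the call and 1 changed sign, Csnk1d footprints with Rapalink-1 (0.09 with totals). Library totals shifted the median of all genes by -0.137 in RNA, 0.272 in footprints and 0.367 in efficiency for Rapalink-1 against DMSO, by -0.142, 0.221 and 0.325 for Rapalink-1 against rapamycin, and by at most 0.051 for rapamycin against DMSO. With totals, 6 clock genes were called in efficiency with Rapalink-1 (Arntl and Dbp added), 3 between the drugs in footprints (Cry1 and Clock lost) and 5 between the drugs in efficiency (Cry1 and Clock added). Uncalled genes whose sign turned with totals were, for Rapalink-1 against DMSO, Per1 (-0.06) and Cry2 (-0.07) in RNA, Cry2 (0.2) and Arntl (0.26) in footprints, and Per2 (0.36) and Cry2 (0.27) in efficiency. For Rapalink-1 against rapamycin they were Per3 (-0.05) and Cry2 (-0.12) in RNA, Cry2 (0.07) and Arntl (0.14) in footprints and Cry2 (0.19) in efficiency, and for rapamycin against DMSO Per1 in footprints (0.05) and Per2 in efficiency (0.02). Arntl footprints with Rapalink-1 stood at 0.0001 in DESeq2's Wald test and 0.0042 with only the 2 treatments compared, and the efficiency of Per2 between the drugs at -0.0017 with TMM factors computed without ribosomal protein genes.

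Leaving out each replicate in turn gave 3 to 5 clock genes called between the drugs in footprints (3 without Rapalink-1 replicate 2), 2 to 4 in efficiency with Rapalink-1 (2 without DMSO replicate 3 or Rapalink-1 replicate 2) and 0 to 1 in efficiency with rapamycin. Uncalled genes whose sign turned for a left-out replicate ranged, for Rapalink-1 against DMSO, from -0.08 to 0.25 (Per1 RNA), -0.07 to 0.17 (Cry2 RNA), -0.17 to 0.08 (Arntl footprints), -0.2 to 0.22 (Per2 efficiency) and -0.09 to 0.44 (Clock efficiency). For rapamycin against DMSO the ranges were -0.05 to 0.12 (Cry2 RNA), -0.02 to 0.08 (Clock RNA), -0.08 to 0.05 (Per1 footprints), -0.04 to 0.14 (Arntl footprints), -0.13 to 0.1 (Per2 efficiency) and -0.05 to 0.13 (Cry2 efficiency). For Rapalink-1 against rapamycin they were -0.11 to 0.13 (Cry2 RNA), -0.28 to 0.0034 (Arntl RNA), -0.01 to 0.18 (Per3 RNA), -0.18 to 0.24 (Per2 efficiency) and -0.13 to 0.32 (Arntl efficiency).

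No clock gene was called in efficiency with rapamycin (0) without a count filter, or with the lysate as a replicate block (0, against 1 in the fit without it). The lysate block gave 3 clock genes called in efficiency with Rapalink-1 and 2 between the drugs, and changed no other call than those of Per1, Cry1 and Per3 given above. A block by replicate number changed no count of clock genes called, with 5 and 7 in RNA and footprints with Rapalink-1. Of the 9 clock genes Dbp had the fewest reads and the largest standard error in each comparison, 0.25 to 0.43.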
